A study of Mus musculus with 27 samples.

Results

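Bone marrow-derived macrophages (BMDM) were examined for 8 genes of the tumor necrosis factor (TNF) superfamily and its receptors. They comprise the ligands Tnf, Tnfsf9, Tnfsf10, Tnfsf15 and Tnfsf13b and the receptors Tnfrsf1a, Tnfrsf1b and Fas. The members were found by their symbols among the gene names of the array, which gave 8 of 34844 gene names and 9 of 55681 probes, with Tnfrsf1a measured by 2 probes. The macrophages were grown from the marrow of female C57BL/6 mice aged 6 to 8 weeks, for 7 days in medium conditioned by L929 fibroblasts, and carried no engineered allele. They were left untreated (naïve), or stimulated for 4 h with a toll-like receptor (TLR) ligand (acute), or kept with that ligand for 24 h, washed, and given the same ligand again for 4 h (re-stimulated). The ligands were LPS for TLR4 at 100 ng/ml, Pam3CSK4 for TLR2 at 100 ng/ml, Poly(I:C) for TLR3 at 10 µg/ml and CpG DNA for TLR9, for which the labels give 100 µM and the methods a lower concentration. The methods say in 1 place that each replicate came from another mouse and elsewhere that marrow was pooled. Each of the 9 conditions had 3 arrays, but 1 LPS re-stimulated and 1 acute Pam3CSK4 array failed the quality control of the study, which left 25.

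TNF superfamily ligands are made as membrane proteins, several of which are shed, and they bind receptors that lack enzymatic activity and recruit adapter proteins. Depending on the receptor, the adapters activate NF-κB and MAP kinases or a caspase that starts cell death. In macrophages, Tnf is among the best known targets of TLR signaling, and its reduced production on a repeated stimulus is the classic readout of endotoxin tolerance. The comparisons asked how each ligand changed these genes in naïve cells and how levels in re-stimulated cells differed from those in acute and naïve cells. No group was kept with a ligand for 24 h without the second dose. What the second dose did therefore cannot be told apart from what the first had left. Words such as fell, rose, stayed or remained on re-stimulation describe differences between these groups.

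The 3 naïve arrays did not look alike. On naïve replicate 3, 74.6% of probes were well above background, against 42.1% to 54.3% on the other 24 arrays, and its levels of Tnf, Fas and Tnfsf15 lay well above those of the other naïve arrays. The counts of members called against naïve cells are therefore given with and without it, as are the differences of some members. All groups other than acute LPS shared 3 slides and 1 scan day, with 1 array of each group a slide. The 3 acute LPS arrays lay on 3 further slides that held no other group used here and were read on 2 different days, so acute LPS cannot be told apart from its slides. All 8 macrophage markers examined (Emr1, Cd68, Csf1r, Itgam, Cd14, Lyz2, Mertk and Fcgr1) were well above background on all 25 arrays. Of 29 markers of other cells, 8 were well above background on all 25 arrays. They were Siglech, a plasmacytoid dendritic cell gene with group means of 15.21 to 16.35 on the log2 scale, the neutrophil genes Elane (11.41 to 12.2) and Camp, the T cell genes Cd3e (9.37 to 10.28), Cd247 and Lck, and the B cell genes Cd79a and Cd79b. A further 18 were above background on some arrays, among them Zbtb46 on 24, Col1a2 on 23, Pdgfrb on 20, Cd3g on 2 and Cd3d and Ms4a1 on 1 each. The neutrophil genes Ngp, Ly6g, Mpo and Ltf were so on 17, 16, 16 and 15, with highest group means of 9.35, 12.22, 8.65 and 10.41. Klrb1c, Xcr1 and Pdgfra were above background on 0. In bulk RNA, fewer cells of a type and less RNA per cell cannot be told apart.

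The promoters of the members are shown for the genes whose levels moved together or apart below. The table of RefSeq promoters (GRCm38.p6) held 7 of the 8 members, in 8 entries. The 250 bases before the start were searched on both strands for the core of the interferon-stimulated response element (2 GAAA repeats with 2 bases between them), an AP-1 motif (TGANTCA), the gamma-activated sequence (TTCNNNGAA) and the NF-κB consensus. Matches are in capitals, and the sequences run 5′ to 3′ on the strand of the gene. Tnf, at chr17:35202008-35202257 on the minus strand, and Fas, at chr19:34290409-34290658 on the plus strand, are given as a ligand and a receptor whose arrays after each of the 4 acute stimuli all lay above the naïve arrays. For Tnfsf13b, at chr8:10006603-10006632 on the plus strand, and Tnfrsf1b, at chr4:145246871-145246900 on the minus strand, the 30 bases nearest to the start are given, since these were the members with a call for a higher level on re-stimulation than on acute stimulation.
Tnf: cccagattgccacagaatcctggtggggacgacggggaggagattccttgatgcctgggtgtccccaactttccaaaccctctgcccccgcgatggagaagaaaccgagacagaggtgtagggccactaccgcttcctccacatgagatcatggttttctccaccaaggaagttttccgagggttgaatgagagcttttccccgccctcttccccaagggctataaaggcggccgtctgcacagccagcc
Fas: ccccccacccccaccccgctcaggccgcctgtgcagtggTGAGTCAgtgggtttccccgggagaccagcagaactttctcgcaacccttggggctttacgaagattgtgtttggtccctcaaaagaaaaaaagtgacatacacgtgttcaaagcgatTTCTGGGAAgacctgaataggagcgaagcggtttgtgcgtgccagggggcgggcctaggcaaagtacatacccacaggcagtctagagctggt
Tnfsf13b: atcttacaaaaactGAAAGTGAAAtgcgga
Tnfrsf1b: cctagctcctggcctgagggTTTCGCTTTC
The GAAA repeat was found before the start of Tnfrsf1b, where it lies on the opposite strand, and before 1 of the 2 starts of Tnfsf13b. Only that start of Tnfsf13b is printed, and the window of the other held none of the 4 motifs. The 30 bases printed leave out matches further from the start, an AP-1 motif for Tnfsf13b and a gamma-activated sequence for Tnfrsf1b. It occurs in 2.98% of all 32851 promoter windows of this length. An AP-1 motif, which occurs in 6.75% of windows, was in that of Fas and in that of the same start of Tnfsf13b. The gamma-activated sequence, in 7.02% of windows, was found before all 3 receptors, Fas, Tnfrsf1a and Tnfrsf1b. None of the 4 motifs was in the windows of Tnf, Tnfsf10 and Tnfsf15, which says only that these letters are not there, and the NF-κB consensus was in 7.25% of all windows and in none of the members.

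Tnf encodes the cytokine that names the family, made by activated macrophages above all. On its probe, log2 expression was 9.0, 9.53 and 13.44 on the naïve arrays, 16.78, 17.00 and 17.57 after acute LPS, and 17.34, 17.09 and 18.05 after acute CpG. On acute Pam3CSK4 it was 16.97 and 15.87, and on acute Poly(I:C) 14.22, 13.86 and 15.80. Every acutely stimulated array thus lay above every naïve array, with Poly(I:C) lowest. On re-stimulation the values were 13.84 and 13.94 with LPS, 15.74, 15.06 and 16.34 with CpG, 13.97, 13.99 and 15.49 with Pam3CSK4, and 13.17, 12.63 and 15.56 with Poly(I:C). The re-stimulated arrays lay below the acute arrays for LPS, CpG and Pam3CSK4, and overlapped with them for Poly(I:C).

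Acute LPS raised Tnf 87.9-fold (6.46 ± 1.14 on the log2 scale, difference ± SE, adjusted p = 0.00995 in limma) and acute CpG 114-fold (6.84 ± 1.17, adjusted p = 0.0317). The CpG call was lost without naïve replicate 1 or 2 or any acute CpG array (adjusted p = 0.0824 to 0.123) and with the replicate block (0.0535). Acute Pam3CSK4 did not pass (5.76 ± 1.45, adjusted p = 0.291), nor did acute Poly(I:C) (3.97 ± 1.25, adjusted p = 0.134). Without naïve replicate 3 the differences were 7.85, 8.23, 7.16 and 5.36 for LPS, CpG, Pam3CSK4 and Poly(I:C), with adjusted p of 0.000105, 0.00218, 0.0502 and 0.0135. On re-stimulation Tnf fell 9.34-fold with LPS (-3.22 ± 0.28, adjusted p = 0.000913), and this call held with each array left out in turn. With CpG (-1.78 ± 0.39, adjusted p = 0.0595), Poly(I:C) (-0.84 ± 0.87, adjusted p = 0.575) and Pam3CSK4 (-1.94 ± 0.59, adjusted p = 0.265) the differences had the same sign and did not pass. With CpG the difference was below 0 on all 3 slides (-2.04 to -1.6), and with the replicate number as a block it was a call. The order of group means ran from acute CpG (17.49) through acute LPS (17.12) down to Poly(I:C) re-stimulated (13.79) and naïve (10.66), and of the 8 pairs of neighbours in it only Pam3CSK4 re-stimulated (14.48) and LPS re-stimulated (13.89) did not overlap.

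**Figure D1:**
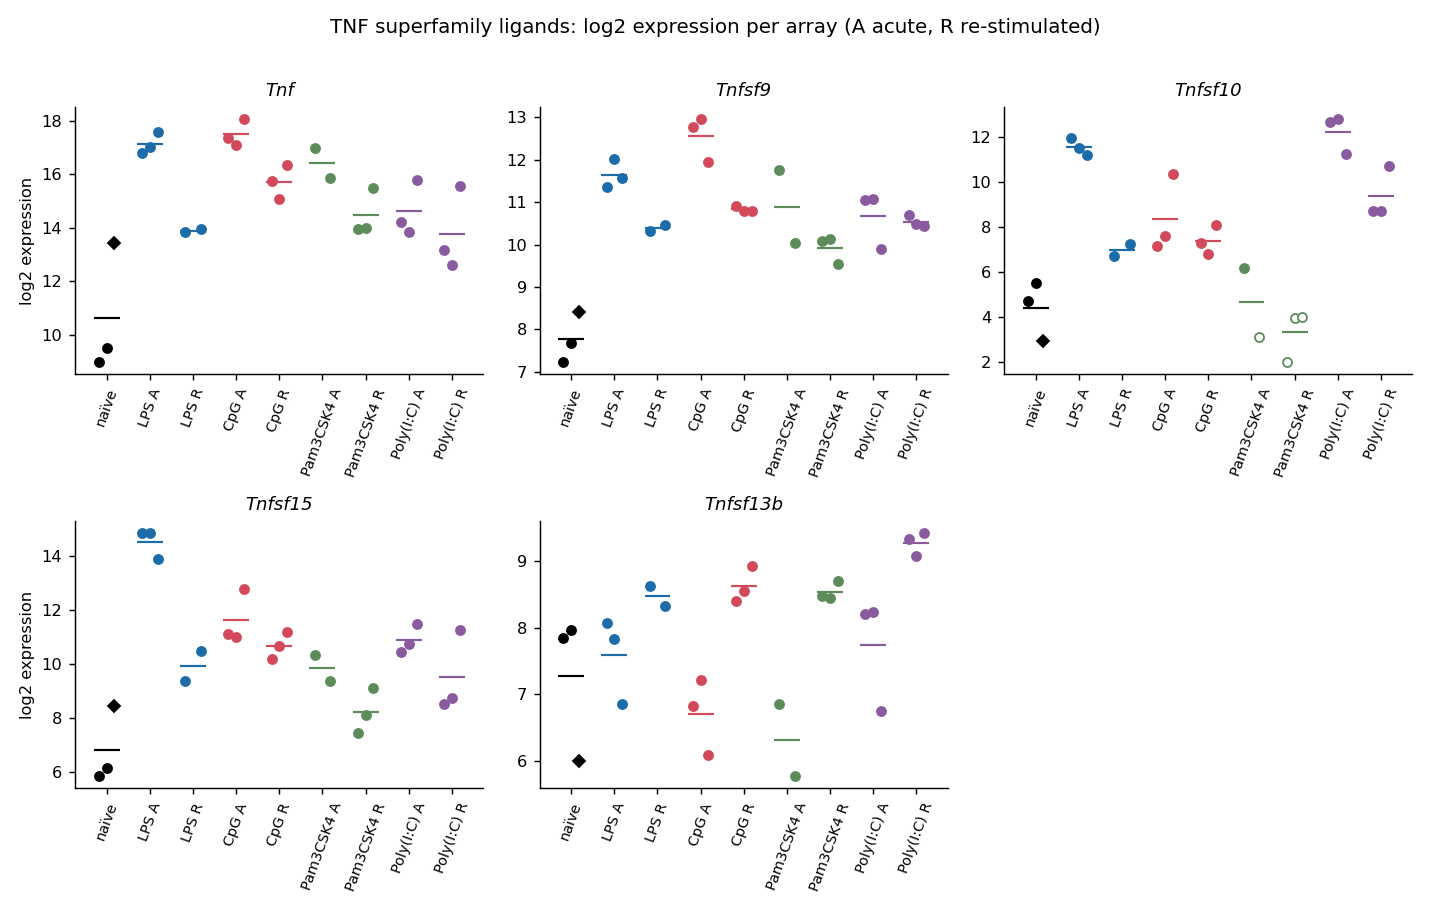
Log2 expression of the 5 ligands on each of 25 arrays (points) with the mean of each group (line), in naïve cells and after acute (A) or repeated (R) stimulation with each TLR ligand. The diamond marks naïve replicate 3, open points were not well above background, and each panel has its own axis. Acute Tnf sits at 13.86 or higher, Tnfsf10 is high with Poly(I:C) and acute LPS and low with Pam3CSK4, and Tnfsf13b is highest in re-stimulated cells.

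Tnfsf9 encodes the ligand of Tnfrsf9, a costimulatory receptor best known on T cells, and it had the tightest naïve values of the induced ligands. Its log2 expression was 7.23, 7.68 and 8.41 in naïve cells, 11.37, 12.01 and 11.56 after acute LPS, 12.77, 12.96 and 11.96 after acute CpG, 11.76 and 10.03 after acute Pam3CSK4, and 11.06, 11.08 and 9.89 after acute Poly(I:C). All acute arrays exceeded all naïve arrays. Acute CpG raised it 27.6-fold (4.79 ± 0.40, adjusted p = 0.00649), LPS 14.6-fold (3.87 ± 0.35, adjusted p = 0.00127) and Poly(I:C) 7.47-fold (2.90 ± 0.45, adjusted p = 0.0244), while Pam3CSK4 did not pass (3.12 ± 0.63, adjusted p = 0.288). With Poly(I:C) the call did not hold without naïve replicate 1 or 2 or acute Poly(I:C) replicate 1 or 2 (adjusted p = 0.0896 to 0.116), and with the replicate block (0.0748).

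In re-stimulated cells Tnfsf9 had the values 10.31 and 10.46 with LPS, 10.92, 10.80 and 10.79 with CpG, 10.08, 10.13 and 9.55 with Pam3CSK4, and 10.70, 10.48 and 10.45 with Poly(I:C). It was thus lower than after the acute stimulus with LPS and CpG but still far above naïve. It fell 2.39-fold with LPS (-1.26 ± 0.25, adjusted p = 0.0123) and 3.31-fold with CpG (-1.73 ± 0.28, adjusted p = 0.0378), and the values were -0.98 ± 0.54 with Pam3CSK4 and -0.13 ± 0.35 with Poly(I:C). Leaving out 1 of the 2 LPS re-stimulated arrays leaves a single array, which is then assumed to vary like those of the other group. The fall with LPS did not pass without LPS re-stimulated replicate 1 (adjusted p = 0.0678) or replicate 2 (adjusted p = 0.0578), and the fall with CpG did not pass without acute CpG replicate 1 (0.108) or 2 (0.101) or without any re-stimulated CpG array (0.0873 to 0.137). Against naïve cells, Tnfsf9 was the only member called higher in all 4 re-stimulated groups, by 6.12-fold with LPS (2.61 ± 0.39, adjusted p = 0.0343), 8.35-fold with CpG (3.06 ± 0.31, adjusted p = 0.00676), 4.42-fold with Pam3CSK4 (2.15 ± 0.35, adjusted p = 0.0334) and 6.81-fold with Poly(I:C) (2.77 ± 0.32, adjusted p = 0.0106). The LPS and Pam3CSK4 calls were lost without naïve replicate 1 or 2 or any re-stimulated array (adjusted p = 0.104 to 0.265 and 0.0582 to 0.136), and the Poly(I:C) call without naïve replicate 2 or re-stimulated replicate 1 or 2 (0.0522 to 0.0603). Blocking on the replicate number also removed the Pam3CSK4 call (adjusted p = 0.0769).

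Tnfsf10 encodes TRAIL, a death ligand whose transcription is known to respond to interferon. It was the only member called between TLR ligands in fits of 2 groups without the replicate block, as given below. Log2 expression of Tnfsf10 was 4.72, 5.51 and 2.97 in naïve cells, 11.98, 11.54 and 11.22 after acute LPS, and 12.67, 12.81 and 11.26 after acute Poly(I:C). Acute CpG gave 7.18, 7.61 and 10.38, and acute Pam3CSK4 gave 6.21 and 3.13, the second of which was not well above background. Acute LPS and Poly(I:C) therefore lay far above naïve, CpG in between with 1 high array, and Pam3CSK4 within the naïve range or near it. Poly(I:C) raised Tnfsf10 230.0-fold (7.85 ± 0.75, adjusted p = 0.00762) and LPS 145-fold (7.18 ± 0.64, adjusted p = 0.00125), whereas Pam3CSK4 (0.27 ± 1.18, adjusted p = 0.946) and CpG (3.99 ± 1.03, adjusted p = 0.0824) did not pass. The Poly(I:C) call was lost by a small margin without acute Poly(I:C) replicate 1 (adjusted p = 0.0526) or replicate 2 (0.0525). Without naïve replicate 3, the lowest naïve array, the differences were 6.46 with LPS and 7.13 with Poly(I:C) (adjusted p = 0.000188 and 0.00567). The 2.97 of that array counted as well above background, where the lowest such signal was 2.02, whereas 3.13 on acute Pam3CSK4 did not. The folds over naïve thus rest in part on a value near background.

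On re-stimulation Tnfsf10 was 6.72 and 7.27 with LPS, 7.31, 6.80 and 8.11 with CpG, and 8.71, 8.73 and 10.71 with Poly(I:C), and with Pam3CSK4 it was not well above background on any of the 3 arrays (2.02, 3.98 and 4.02). It fell 23.9-fold with LPS (-4.58 ± 0.30, adjusted p = 0.000491), a call that held with each array left out. With Poly(I:C) it was lower on all 3 slides (by 0.55 to 4.07) without passing (-2.86 ± 0.67, adjusted p = 0.0629), and with CpG the groups overlapped (-0.99 ± 0.85, adjusted p = 0.546). It remained 31.7-fold above naïve with Poly(I:C) (4.98 ± 0.83, adjusted p = 0.0234) and 8.02-fold with CpG (3.00 ± 0.69, adjusted p = 0.0416), and neither passed with the replicate number as a block (adjusted p = 0.0757 and 0.0973). Both calls were also lost without naïve replicate 1 or 2 (adjusted p = 0.0555 to 0.0983), the CpG call without any re-stimulated CpG array (0.0978 to 0.125) and the Poly(I:C) call without re-stimulated replicate 1 or 2 (0.0776 and 0.0791).

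Tnfsf15 encodes TL1A, a ligand of the death domain receptor Tnfrsf25 that costimulates T cells. On the arrays its log2 values were 5.85, 6.13 and 8.45 in naïve cells, 14.82, 14.83 and 13.87 after acute LPS, 11.12, 11.01 and 12.77 after acute CpG, 10.34 and 9.36 after acute Pam3CSK4, and 10.44, 10.74 and 11.47 after acute Poly(I:C). LPS stood above all other groups without overlap, and no acute array fell within the naïve range. LPS raised Tnfsf15 207-fold (7.69 ± 0.72, adjusted p = 0.00142), CpG 28.3-fold (4.82 ± 0.83, adjusted p = 0.0318) and Poly(I:C) 16.9-fold (4.08 ± 0.74, adjusted p = 0.0353), and Pam3CSK4 did not pass (3.04 ± 0.89, adjusted p = 0.318). The CpG and Poly(I:C) calls were lost without naïve replicate 1 or 2 or any acute array (adjusted p = 0.0707 to 0.125 and 0.0674 to 0.14). Without naïve replicate 3, the highest naïve array, the differences were 8.52 with LPS, 5.65 with CpG and 4.9 with Poly(I:C) (adjusted p = 0.000109, 0.00962 and 0.00489).

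The re-stimulated values of Tnfsf15 were 9.38 and 10.48 with LPS, 10.18, 10.66 and 11.18 with CpG, 7.43, 8.12 and 9.12 with Pam3CSK4, and 8.51, 8.75 and 11.24 with Poly(I:C). With LPS it fell 23.8-fold (-4.57 ± 0.44, adjusted p = 0.00123). The LPS re-stimulated arrays overlapped with those of CpG and Poly(I:C) and lay above those of Pam3CSK4. The values with CpG (-0.96 ± 0.52), Pam3CSK4 (-1.63 ± 0.56) and Poly(I:C) (-1.39 ± 0.75) did not pass (adjusted p = 0.331, 0.307 and 0.292), although within slides all of them were below 0, on 3, 2 and 3 slides. With CpG it stayed 14.5-fold above naïve (3.86 ± 0.72, adjusted p = 0.025), which was lost without naïve replicate 1 or 2 or any re-stimulated CpG array (0.0749 to 0.0907).

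Tnfsf13b encodes BAFF, the B cell survival factor, and no acute stimulus gave a call for it. Its values were 7.85, 7.97 and 6.00 in naïve cells and, after acute stimulation, 8.07, 7.83 and 6.85 with LPS, 6.83, 7.21 and 6.09 with CpG, 6.85 and 5.77 with Pam3CSK4, and 8.21, 8.24 and 6.75 with Poly(I:C). All acute groups overlapped with naïve, and no acute comparison passed (differences -0.97 to 0.46, adjusted p = 0.628 to 0.736). With acute Poly(I:C) it was higher than naïve on all 3 slides, by 0.27 to 0.75, and did not pass with the replicate block (adjusted p = 0.162). On re-stimulation the values were 8.62 and 8.32 with LPS, 8.40, 8.55 and 8.93 with CpG, 8.47, 8.45 and 8.70 with Pam3CSK4, and 9.33, 9.08 and 9.42 with Poly(I:C). In each of the 4 ligands, every re-stimulated array was above every acute array and above every naïve array.

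The higher level of Tnfsf13b in re-stimulated than in acute cells was a call with CpG, at 3.78-fold (1.92 ± 0.32, adjusted p = 0.0385). It did not pass with LPS (0.89 ± 0.39, adjusted p = 0.124), Poly(I:C) (1.54 ± 0.42, adjusted p = 0.0871) or Pam3CSK4 (2.23 ± 0.36, adjusted p = 0.16), and within slides the difference was above 0 on all slides with CpG, Pam3CSK4 and Poly(I:C). In 1 fit of all 9 groups the differences with CpG, Pam3CSK4 and Poly(I:C) all passed (adjusted p = 0.0253, 0.0368 and 0.0427) and that with LPS did not (0.23). With CpG the difference missed the threshold when replicate numbers were blocked (adjusted p = 0.056) and without acute CpG replicate 1 or 2 or any re-stimulated CpG array (0.0819 to 0.133). The array of replicate 3 was the lowest in naïve, acute LPS, acute CpG, acute Pam3CSK4 and acute Poly(I:C) cells.

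Tnfrsf1a encodes the widely expressed TNF receptor with a death domain, and its level moved little. On the probe with the higher mean, at chr6:125312376-125312435 (mm9), log2 expression was 13.44, 13.43 and 13.53 in naïve cells, 14.24, 14.30 and 14.03 after acute LPS and 13.91, 13.99 and 14.01 after acute Poly(I:C). After acute CpG it was 13.26, 13.46 and 13.92 and after acute Pam3CSK4 13.22 and 13.48, and all re-stimulated arrays lay between 13.21 and 13.62. Acute LPS and Poly(I:C) were thus above naïve without overlap, and the re-stimulated arrays were back near it. LPS raised it 1.65-fold (0.72 ± 0.18, adjusted p = 0.028), and Poly(I:C) did not pass (0.50 ± 0.15, adjusted p = 0.114). On re-stimulation it fell 1.87-fold with LPS (-0.91 ± 0.20, adjusted p = 0.0166), and the value with Poly(I:C) was -0.65 ± 0.16 (adjusted p = 0.0669). The other probe, at chr6:125311922-125311981, had the same signs with LPS and no call in a fit of 2 groups, with 0.59 ± 0.24 for acute LPS (adjusted p = 0.118) and -0.69 ± 0.26 for LPS re-stimulation (adjusted p = 0.0878). Without replicate 1 or 2 of naïve or acute LPS cells the acute LPS call was lost (adjusted p = 0.0856 to 0.115), and the fall on LPS re-stimulation was lost without acute LPS replicate 1 (0.0539) or 2 (0.0705) or either re-stimulated array (0.0679 and 0.0922).

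Tnfrsf1b encodes the TNF receptor without a death domain, largely found on hematopoietic cells. Log2 expression was 13.07, 12.85 and 13.33 in naïve cells, 13.58, 13.28 and 13.37 after acute LPS and 13.48, 13.41 and 13.03 after acute Poly(I:C), against 15.02, 14.99 and 13.58 after acute CpG and 15.05 and 14.03 after acute Pam3CSK4. On re-stimulation it was 14.67 and 14.71 with LPS, 13.71, 14.15 and 14.18 with CpG, 13.99, 13.79 and 14.12 with Pam3CSK4, and 13.46, 13.57 and 13.31 with Poly(I:C). Acute CpG and Pam3CSK4 thus lay above naïve, acute LPS and Poly(I:C) overlapped with it, and with LPS the higher level was seen only in the re-stimulated arrays. The acute differences were 1.45 ± 0.43 for CpG (adjusted p = 0.112) and 1.46 ± 0.37 for Pam3CSK4 (adjusted p = 0.292), and 0.33 ± 0.21 for LPS (adjusted p = 0.28). With LPS it rose 2.44-fold from acute to re-stimulated cells (1.28 ± 0.20, adjusted p = 0.00532) and was 3.05-fold above naïve (1.61 ± 0.22, adjusted p = 0.0302), the latter call being lost without naïve replicate 1 or 2 or either re-stimulated array (0.105 to 0.246). With CpG, re-stimulated cells were 1.91-fold above naïve (0.93 ± 0.22, adjusted p = 0.044), which did not pass with a block on replicate number (0.0714) or without naïve replicate 1 or 2 or any re-stimulated CpG array (0.0729 to 0.144).

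Fas encodes the death receptor for Fas ligand. Its level was 8.52, 8.58 and 10.73 in naïve cells, and the other 22 arrays lay between 11.45 and 12.47. Acute cells had 12, 11.87 and 11.51 with LPS, 12.21, 12.47 and 12.17 with CpG, 12.39 and 12.29 with Pam3CSK4 and 12.31, 12.41 and 11.62 with Poly(I:C). Re-stimulated cells had 12 and 12.28 with LPS, 11.71, 11.99 and 11.73 with CpG, 11.60, 11.58 and 11.72 with Pam3CSK4, and 11.45, 11.78 and 11.57 with Poly(I:C). All stimulated arrays were therefore above all naïve arrays and lay close together. Acute CpG raised Fas 8.05-fold (3.01 ± 0.61, adjusted p = 0.0475) and LPS 5.73-fold (2.52 ± 0.61, adjusted p = 0.0272), and re-stimulated CpG was 5.79-fold above naïve (2.53 ± 0.61, adjusted p = 0.0454). These calls were lost without naïve replicate 1 or 2 or any stimulated array (adjusted p = 0.103 to 0.163, 0.0686 to 0.0901 and 0.12 to 0.142), and those with CpG also with the replicate block (0.0804 in acute and 0.0696 in re-stimulated cells). The other 5 comparisons with naïve cells had differences of 2.33 to 3.06 and adjusted p of 0.0612 to 0.288. Without naïve replicate 3 these 8 differences were 3.05 to 3.79, and 7 of them passed, with acute Pam3CSK4 at an adjusted p of 0.0502. No change from acute to re-stimulated cells passed for Fas (-0.71 to 0.35, adjusted p = 0.194 to 0.287).

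**Figure D2:**
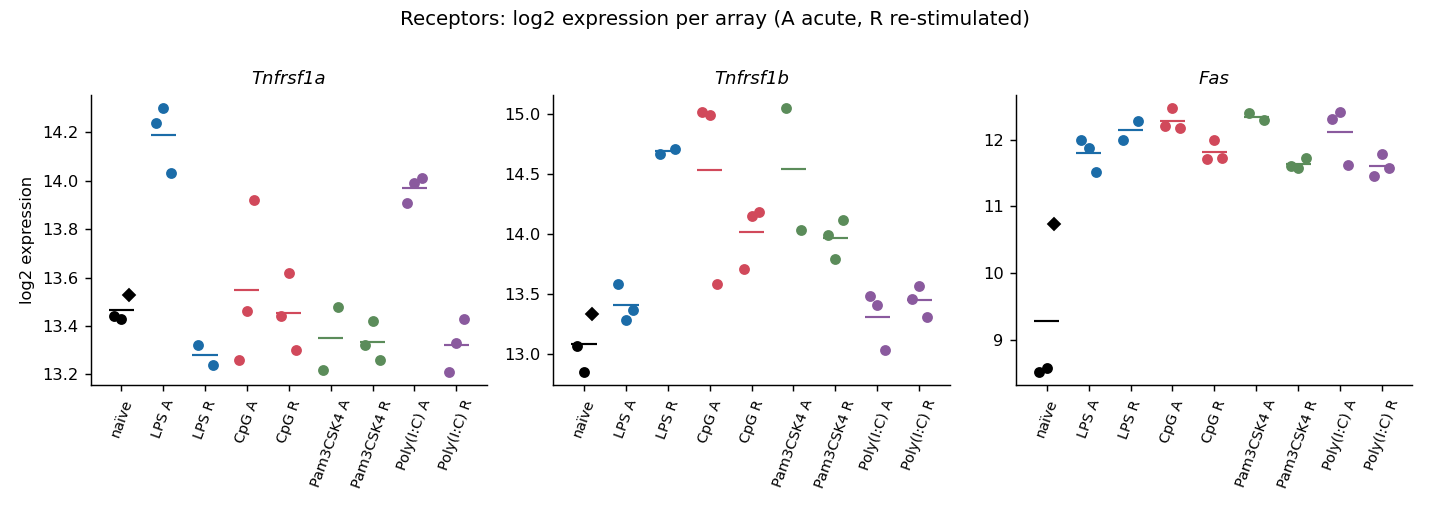
Log2 expression of the receptors Tnfrsf1a, Tnfrsf1b and Fas on each of 25 arrays (points) with the group mean (line), with symbols as in the plot of the ligands and an axis for each panel. Tnfrsf1a is highest after acute LPS (14.03 to 14.30), Tnfrsf1b is high in LPS re-stimulated cells (14.67 and 14.71), and Fas is above naïve in all stimulated groups.

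Counted over the 8 members, 6 were called after acute LPS (Tnf, Tnfsf9, Tnfsf10, Tnfsf15, Tnfrsf1a and Fas), all of them higher, where 26.5% of all tested probes were called, 13.2% higher, and the median difference of the members was 3.20 against -0.01 over all probes. A call is an adjusted p under 0.05 in limma with a difference of at least 1.5-fold. After acute CpG 4 were called (Tnf, Tnfsf9, Tnfsf15 and Fas; 5.72% of probes, 3.09% higher), after acute Poly(I:C) 3 (Tnfsf9, Tnfsf10 and Tnfsf15; 6.03% of probes, 3.80% higher) and after acute Pam3CSK4 0 (0% of probes), all of the calls being higher. The medians of the members were 3.50, 2.87 and 2.25, against -0.07, -0.10 and 0.01 over all probes. Acute Pam3CSK4 had 2 arrays, and no probe of the whole array was called there, although 3458 had an unadjusted p under 0.05. The acute and naïve arrays did not overlap for 6 members with LPS (47.7% of all probes), 6 with CpG (31.3%), 5 with Pam3CSK4 (32.2%) and 6 with Poly(I:C) (29.3%), all higher. In 1 fit of all 9 groups 5 members passed with Pam3CSK4 (Tnf, Tnfsf9, Tnfsf15, Tnfrsf1b and Fas), where 5.21% of probes did. Without naïve replicate 3 the counts were 6 for LPS (36.6% of probes), 4 for CpG (9.18%), 5 for Poly(I:C) (9.44%) and 0 for Pam3CSK4 (0%). Without naïve replicate 1 or 2 they were 4 for LPS and 1 each for CpG and Poly(I:C), for which no share of probes is given. With the replicate number as a block, the calls were Tnfsf9 and Tnfsf15 for CpG (2.1% of probes) and Tnfsf10 and Tnfsf15 for Poly(I:C) (4.45%). Of the 7 marker lists, 2 had summed levels in acute LPS cells that did not overlap with naïve. The 5 T cell markers were higher (11.02 to 11.33 against 9.73 to 10.08), with 2 of the 5 not above background on any acute LPS array, and the 8 macrophage markers were lower (19.01 to 19.19 against 19.56 to 19.61). With the other ligands 1 list each stood apart from naïve, the 5 fibroblast markers higher with CpG (8.61 to 8.69 against 6.31 to 8.19) and the macrophage markers higher with Pam3CSK4 (19.71 to 19.78) and lower with Poly(I:C) (19.48 to 19.55). The part of these in the results was not tested.

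**Figure D3:**
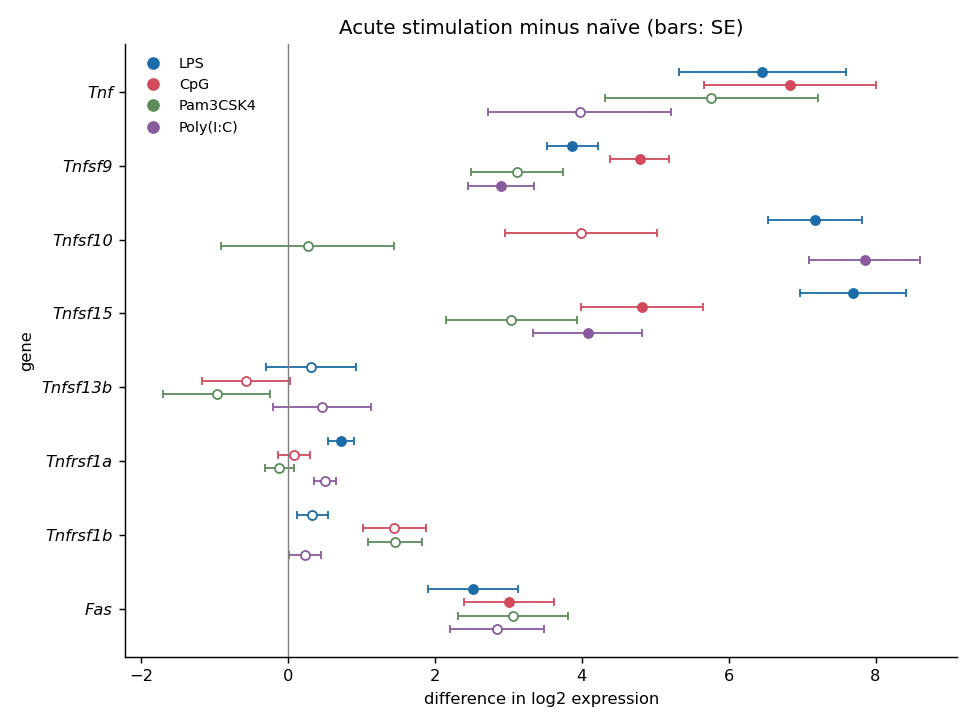
Difference in log2 expression between acute and naïve cells for each member (rows) and TLR ligand (colours), with bars for the SE of the limma fit of the 2 groups. Filled points are calls. LPS has 6 filled points, CpG 4, Poly(I:C) 3 and Pam3CSK4 none, and the values of Tnfsf13b and Tnfrsf1a stay between -0.97 and 0.72.

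Between acute and re-stimulated cells, 6 members were called with LPS, 5 of them lower (Tnf, Tnfsf9, Tnfsf10, Tnfsf15 and Tnfrsf1a) and 1 higher (Tnfrsf1b), where 34.2% of all tested probes were called, 17% lower and 17.2% higher. The median over the members was -1.08, against -0.02 over all probes. With CpG 2 were called, Tnfsf9 lower and Tnfsf13b higher (3.56% of probes, 1.71% lower and 1.85% higher). With Pam3CSK4 0 of 7 tested members were called (0% of probes, 3461 probes at an unadjusted p under 0.05), and with Poly(I:C) 0 of 8 (4.93% of probes, 7100 probes at an unadjusted p under 0.05). In 1 fit of all 9 groups, the counts were 1 for Pam3CSK4 (Tnfsf13b; 2.39% of probes) and 3 for Poly(I:C) (Tnfsf10, Tnfsf13b and Tnfrsf1a; 11.7% of probes). The 2 groups did not overlap for 8 members with LPS, 3 higher and 5 lower on re-stimulation (62.7% of all probes), for 4 with CpG (28.4%) and 4 with Pam3CSK4 (31.8%), 1 higher and 3 lower each, and for 3 with Poly(I:C), 1 higher and 2 lower (32.1%). With the replicate block, the CpG calls were Tnf and Tnfsf9 (4.57% of probes). In the LPS comparison stimulus and slide cannot be told apart, and 6 of the 7 marker lists had summed levels that did not overlap between its groups. The 6 neutrophil markers were higher on LPS re-stimulation (13.47 to 14.09 against 11.54 to 12.16), with 3 of the 6 not above background on any acute LPS array, and so were the macrophage markers (19.58 to 19.63 against 19.01 to 19.19). The T cell (9.81 to 10.02 against 11.02 to 11.33), B cell (7.97 to 8.48 against 8.69 to 9.89), NK cell (5.27 to 5.47 against 5.69 to 5.78) and dendritic cell markers (15.21 to 15.47 against 16 to 16.92) were lower. The summed level of the 4 dendritic cell markers, of which Siglech was the highest, was also lower on re-stimulation without overlap with CpG (14.86 to 15.42 against 15.55 to 16.6), Pam3CSK4 (15.04 to 15.87 against 16.06 to 16.3) and Poly(I:C) (15.33 to 16.02 against 16.06 to 16.32). With these ligands 1, 2 and 2 further lists did not overlap. The part of these in the results was not tested.

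**Figure D4:**
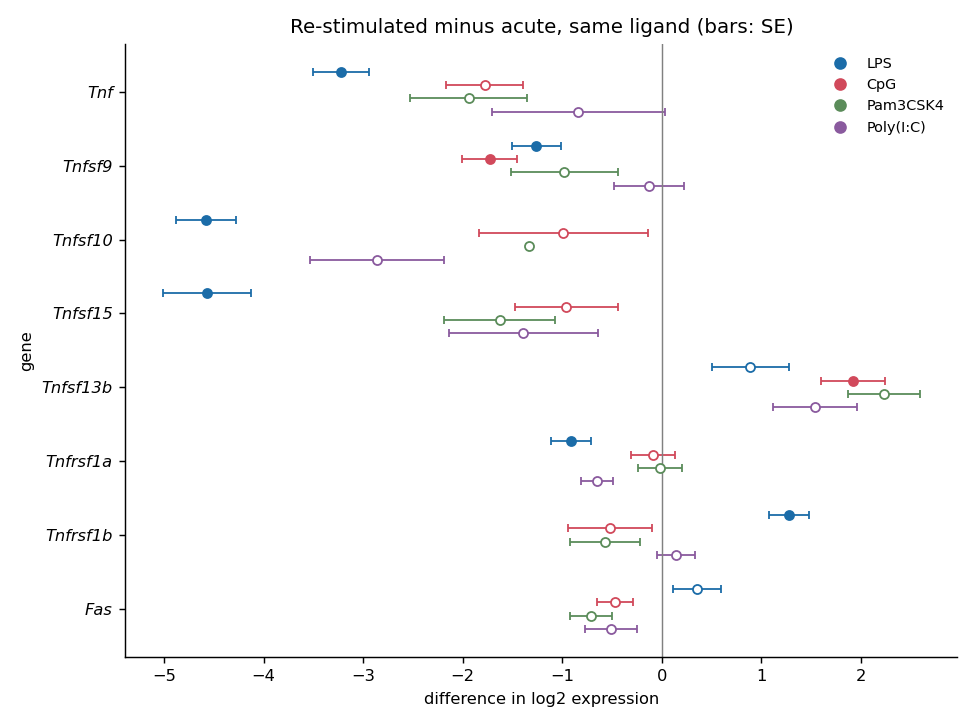
Difference in log2 expression between re-stimulated and acute cells of the same TLR ligand for each member, with bars for the SE of the limma fit of the 2 groups. Filled points are calls, and the Pam3CSK4 point of Tnfsf10 was not tested, as the gene was above background on too few arrays. LPS has 6 filled points, 5 of them left of 0, and Tnfsf13b lies right of 0 with every ligand.

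Compared with naïve cells, re-stimulated cells had 6 members called higher with CpG (all but Tnfsf13b and Tnfrsf1a; 13.1% of probes, 6.65% higher), 2 with LPS (Tnfsf9 and Tnfrsf1b; 5.66%, 3.27% higher), 2 with Poly(I:C) (Tnfsf9 and Tnfsf10; 9.03%, 4.79% higher) and 1 with Pam3CSK4 (Tnfsf9; 5.36%, 2.61% higher). No member was called lower. Re-stimulated and naïve arrays did not overlap for 8 members with LPS (48.1% of probes), 7 with CpG (39.2%), 6 with Pam3CSK4 (32.6%) and 6 with Poly(I:C) (35.8%), all higher except Tnfrsf1a, which was lower with LPS (-0.19), Pam3CSK4 (-0.13) and Poly(I:C) (-0.15) without a call. The summed level of the dendritic cell markers was below naïve (16.21 to 16.31) in all 4 re-stimulated groups without overlap, and its part in the results was not tested. Naïve replicate 3 weighed on these counts, which without it were 6 with CpG (23.7% of probes), 6 with LPS (19.1%), 5 with Poly(I:C) (14%) and 5 with Pam3CSK4 (13.6%). Tnf, Tnfsf9 and Fas were then called in all 4 groups, at 4.52 to 6.45, 2.46 to 3.38 and 3.05 to 3.59 on the log2 scale above naïve. Tnfsf13b was then called with Poly(I:C) (1.37 ± 0.19, adjusted p = 0.0143). With the replicate block, Tnf, Tnfsf9 and Tnfsf15 were the calls with CpG (8.93% of probes) and with Poly(I:C) (5.99%), and there were 0 with Pam3CSK4 (0.0215%). Without naïve replicate 1 or 2, in contrast, the count was 1 with CpG, 0 with LPS and Pam3CSK4, and 1 or 0 with Poly(I:C). No share of probes is given for these. The LPS re-stimulated group had 2 arrays, and with the single array left after removing either of them, which is assumed to vary like the naïve arrays, no member was called.

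The TLR ligands were also set against each other in 9 pairs of groups on the shared slides. In fits of 2 groups without the replicate block the only member called was Tnfsf10, which was lower with Pam3CSK4 than with Poly(I:C). In acute cells, where it was well above background on 1 of the 2 Pam3CSK4 arrays, the difference was -7.58 ± 1.01 (adjusted p = 0.0348, with 2.42% of probes called, 2.13% lower). In re-stimulated cells it was at least 57.7-fold lower (adjusted p = 0.00942, with 4.11% of probes called, 3.24% lower). In the other 7 pairs the share of probes called was 0% for CpG against Pam3CSK4 in acute and in re-stimulated cells, 0.173% for acute CpG against Poly(I:C), and, among re-stimulated cells, 0.316%, 0.909% and 0.957% for LPS against CpG, Pam3CSK4 and Poly(I:C) and 2.47% for CpG against Poly(I:C). The bound is used because Tnfsf10 was not well above background on any Pam3CSK4 re-stimulated array. For each of these arrays it took the measured value or the lowest signal well above background on that array, whichever was higher. Re-stimulated LPS and CpG cells had Tnfsf10 at least 11-fold and at least 14.6-fold above Pam3CSK4, without passing (adjusted p = 0.0831 and 0.0929). With the replicate block 6 calls were made, and that of Tnfsf10 between acute Pam3CSK4 and Poly(I:C) did not pass (adjusted p = 0.0644). In pairs with 3 shared numbers, the blocked calls were Tnfsf10 between Pam3CSK4 and Poly(I:C) re-stimulated cells (adjusted p = 0.0235; 2% of probes) and Tnfsf15, which was higher with CpG than with Pam3CSK4 on re-stimulation (2.45 ± 0.18, adjusted p = 0.0347; 0.492% of probes). The remaining 4 were in pairs with LPS re-stimulated cells, which share 2 numbers and where the deviations of same-numbered arrays correlated at -0.03 to 0.07 (with Pam3CSK4) and -0.06 to 0.29 (with Poly(I:C)). They were Tnfsf10 (adjusted p = 0.0432) and Tnfsf15 (2.16 ± 0.24, adjusted p = 0.0491), both higher with LPS than with Pam3CSK4 (1.11% of probes), Tnfrsf1b, higher with LPS than with Poly(I:C) (1.18 ± 0.19, adjusted p = 0.0468), and Tnfsf10, lower with LPS than with Poly(I:C) (-1.73 ± 0.23, adjusted p = 0.033; 6.04% of probes). Acute CpG cells had more Tnf (by 2.25 to 3.23) and more Tnfsf9 (by 1.71 to 2.07) than acute Poly(I:C) cells on all 3 slides, and neither was a call with the block (adjusted p = 0.0713 and 0.0661). In 1 fit of all 9 groups, Tnfsf9, Tnfrsf1b and Tnfsf10 passed in this pair (adjusted p = 0.0107, 0.0309 and 0.0187) and Tnf did not (0.0895). Between acute Pam3CSK4 and Poly(I:C) cells that fit called Tnfrsf1b (1.23 ± 0.35, adjusted p = 0.0381) and Tnfrsf1a (-0.62 ± 0.18, 0.04) beside Tnfsf10. The other Tnfrsf1a probe did not pass there (adjusted p = 0.161). The change from acute to re-stimulated cells was compared between ligands in 1 fit of all 9 groups. It differed between LPS and CpG for Tnfrsf1b (1.80 ± 0.46, adjusted p = 0.0303) and Tnfrsf1a (-0.81 ± 0.23, adjusted p = 0.0463), and between LPS and Pam3CSK4 for Tnfrsf1b (1.86 ± 0.49, adjusted p = 0.0305) and Tnfrsf1a (-0.89 ± 0.25, adjusted p = 0.0367). The other probe of Tnfrsf1a did not pass in either contrast (-0.63 ± 0.30, adjusted p = 0.214, and -0.84 ± 0.32, adjusted p = 0.117). Over all probes, 6.35% and 7.2% were called in these contrasts. No member was called in the other 4, where 3.61% (LPS against Poly(I:C)), 0.00325% (CpG against Pam3CSK4), 0.0357% (CpG against Poly(I:C)) and 0.101% (Pam3CSK4 against Poly(I:C)) of probes were. The change of Tnf or Tnfsf10 thus did not pass as different between any of the ligands. When arrays were scaled to their medians only, none of the 4 differences passed (adjusted p = 0.248 to 0.617).

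Over the 9 group means, Tnf followed Tnfsf9 (Pearson r = 0.94), and both followed Fas (0.81 and 0.85) and Tnfsf15 (0.81 and 0.82), while Tnfsf10 was closer to Tnfsf15 and Tnfrsf1a (0.75 each) than to Tnf (0.36). Tnfsf13b had coefficients of -0.32 to 0.12 with the other members. Among all genes measured, the profiles most like that of Tnf were those of Ccl3 (0.989), a chemokine gene, Pfkp (0.987) and Olfr94 (0.982). The profile of Tnfsf9 was most like those of Rhbdf2 (0.991), Oaf (0.984) and Tnfaip3 (0.982), and that of Tnfsf10 most like those of Tgtp1, Cmpk2 and Zcchc2 (0.993 each). For Tnfsf15 they were Dyrk2 (0.984), Cldnd1 (0.978) and Sdc4 (0.976), for Tnfsf13b 2610524H06Rik (0.973), Znrd1 (0.970) and Uros (0.964), and for Fas A230051N06Rik and Birc3 (0.967 each) and Ehd1 (0.965). For the TNF receptors they were Xrn2 (0.987), Whsc1l1 (0.984) and Vrk1 (0.983) with Tnfrsf1a, and Mobkl3 (0.954), Eea1 (0.950) and Slc31a1 (0.948) with Tnfrsf1b. These are descriptions over 9 points that share arrays and one normalization.

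The other ligands and receptors of the family were counted from lists of symbols. Of 12 other ligands on the array, 8 could be tested after acute LPS and 3 were called higher, which were Ltb, Tnfsf4 and Tnfsf18 (13.2% of all probes were called higher), and on LPS re-stimulation 3 of 8 were called lower (Ltb, Tnfsf8 and Tnfsf18; 17% of all probes). Tnfsf18, a costimulatory ligand, was not well above background on any naïve array and rose to 7.13, 6.39 and 5.23 after acute LPS (adjusted p = 0.00242) and 4.04, 5.47 and 4.37 after acute Poly(I:C) (adjusted p = 0.0225). It was above background in no other group. Of 25 other receptors, 5 of 17 tested were called after acute LPS, 2 higher and 3 lower (26.5% of all probes were called), and 7 of 16 on LPS re-stimulation, 6 higher and 1 lower (34.2% of all probes). The count after acute LPS was thus near the share over all probes.

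Tnfrsf9, the receptor for the product of Tnfsf9, had the largest difference among the receptors called on LPS re-stimulation. Its array values were 12.01, 12.59 and 10.96 in naïve cells, 11.67, 11.82 and 11.82 after acute LPS and 12.07, 12.82 and 11.98 after acute CpG, but 16.14 and 15.97 in LPS and 14.81, 15.74 and 14.04 in CpG re-stimulated cells. With LPS and CpG the acute arrays overlapped with naïve and the re-stimulated arrays were all above both. After acute Pam3CSK4 it was 12.1 and 11.22, and after acute Poly(I:C) 12.86, 13.88 and 11.74, which overlapped with naïve with 2 of 3 arrays above it. The rise was 4.29 ± 0.19 with LPS (adjusted p = 0.000202) and 2.57 ± 0.46 with CpG (adjusted p = 0.0413). With Pam3CSK4 the re-stimulated values were 15.58, 14.53 and 11.66, and the difference did not pass (2.26 ± 1.14, adjusted p = 0.45), nor did that with Poly(I:C) (0.45 ± 0.52, adjusted p = 0.622). In LPS and CpG re-stimulated cells Tnfsf9 was called lower than after the acute stimulus, as given above. With Pam3CSK4 and Poly(I:C) its acute and re-stimulated arrays overlapped, without a call. Cd40, the receptor for CD40 ligand, rose by 7.33 ± 0.62 after acute LPS (adjusted p = 0.00114), by 6.86 ± 0.67 after CpG (0.00957) and by 6.48 ± 0.74 after Poly(I:C) (0.0115) and fell on LPS re-stimulation (-3.84 ± 0.29, adjusted p = 0.000619). Tnfrsf13b, a receptor for BAFF, fell after acute LPS (-1.66 ± 0.32, adjusted p = 0.0129) and was higher on LPS re-stimulation (1.32 ± 0.32, adjusted p = 0.0239).

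**Figure D5:**
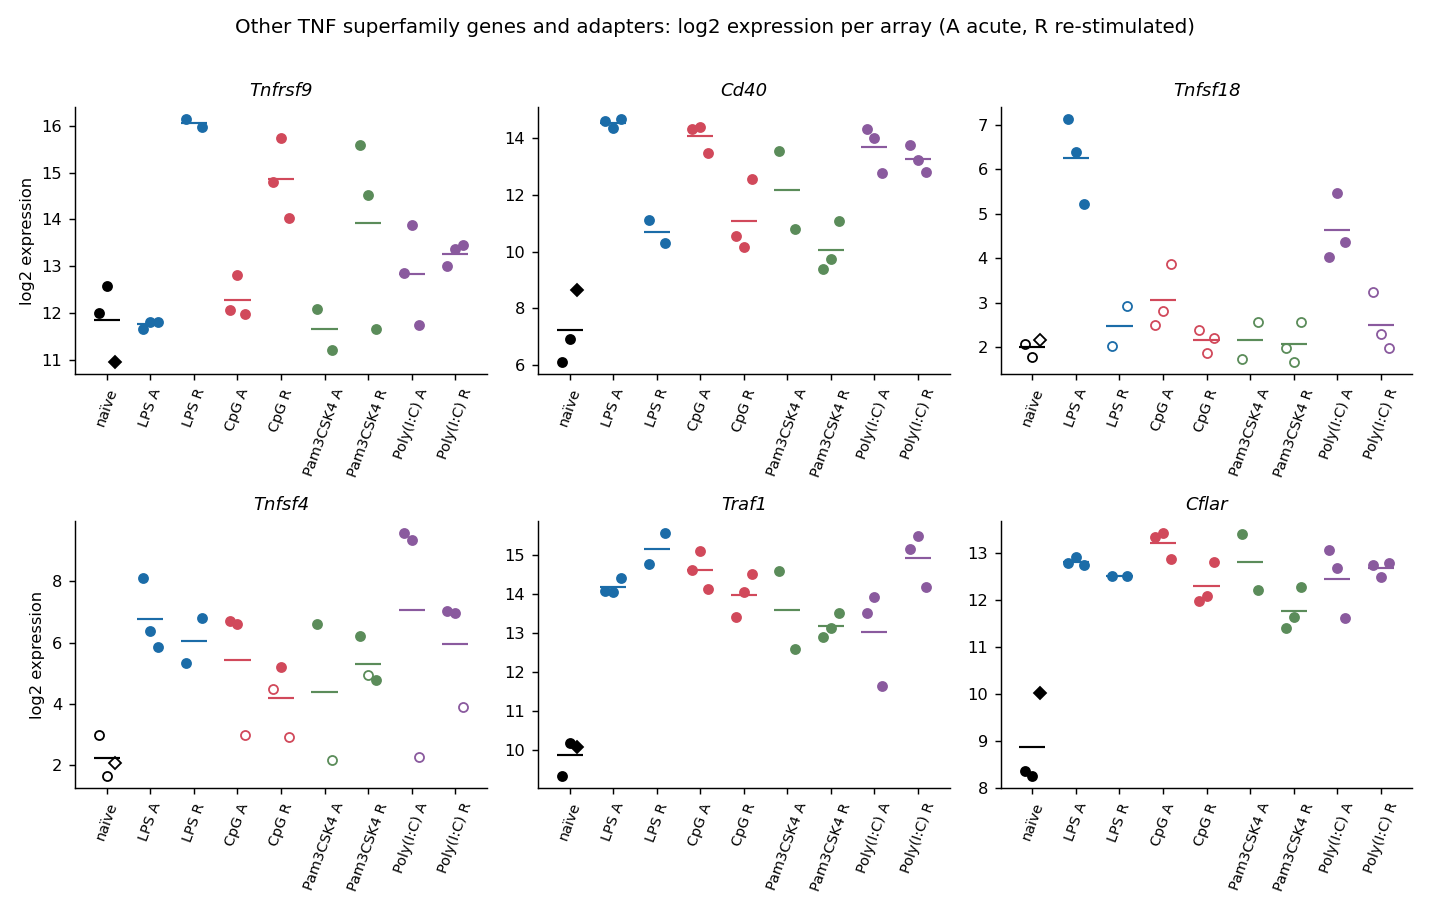
Log2 expression of 6 other genes of the pathway on each of 25 arrays, with symbols as in the plot of the ligands and an axis for each panel. Tnfrsf9 overlaps with naïve in all 4 acute groups and is at 15.97 and 16.14 in LPS re-stimulated cells, Tnfsf18 is above background (filled) only after acute LPS and Poly(I:C), and Traf1 and Cflar stay high in re-stimulated cells.

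Genes that act downstream of the receptors made up 4 further lists. Of 11 adapters and ubiquitin ligases, 6 were called higher after acute LPS (13.2% of all probes) and 3 each after CpG (3.09%) and Poly(I:C) (3.80%), and 5 were higher in Poly(I:C) re-stimulated than in naïve cells (4.79%). Traf1, an adapter and NF-κB target, was called in 8 of the 12 comparisons. It was higher than naïve in all 4 re-stimulated groups, by 5.29 ± 0.39 with LPS (adjusted p = 0.0105), 4.11 ± 0.37 with CpG, 3.32 ± 0.30 with Pam3CSK4 and 5.07 ± 0.42 with Poly(I:C), and with LPS it was higher than after the acute stimulus (0.98 ± 0.29, adjusted p = 0.0457). Of the 6 brakes on the pathway, 4 were called after acute LPS (3 higher, 1 lower; 26.5% of all probes) and 3 higher after acute CpG (3.09%). Tnfaip3, which encodes the deubiquitinase A20, rose after acute LPS (3.58 ± 0.44, adjusted p = 0.00309), CpG (4.01 ± 0.44, 0.013) and Poly(I:C) (2.65 ± 0.44, 0.0289). It fell on re-stimulation with LPS (-1.72 ± 0.25, adjusted p = 0.00422) and CpG (-1.31 ± 0.25, adjusted p = 0.0453).

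Of the 8 genes of the death pathway, 5 were called after acute LPS, 4 higher and 1 lower, against 26.5% of all probes. Cflar, the inhibitor of caspase-8 activation known as c-FLIP, rose after acute LPS (3.94 ± 0.48, adjusted p = 0.00313), CpG (4.33 ± 0.51, 0.0147) and Poly(I:C) (3.57 ± 0.60, 0.0298). It was above naïve in all 4 re-stimulated groups (2.89 to 3.80, adjusted p = 0.0139 to 0.0421) with no call between acute and re-stimulated cells. Mlkl, the effector of necroptosis, was higher in acute Poly(I:C) cells by 2.02 ± 0.21 (adjusted p = 0.00921) and in acute LPS cells by 2.56 ± 0.20 (0.000856). Like Cflar, it was also called above naïve in all 4 re-stimulated groups (1.2 to 2.74, adjusted p = 0.00874 to 0.0423). Fadd and Casp8, which form the signaling complex of Fas, changed in opposite directions, Fadd falling (-1.37 ± 0.22, adjusted p = 0.00767) and Casp8 rising (1.38 ± 0.26, adjusted p = 0.0119) after acute LPS, and with the opposite signs on LPS re-stimulation (1.61 ± 0.25 and -1.32 ± 0.25, adjusted p = 0.0053 and 0.0108). Of 4 genes of shedding and processing on the array, 3 could be tested, and Rhbdf2, a partner of the protease that sheds TNF, was called in 6 of the 12 comparisons. It rose by 2.26 ± 0.28 after acute LPS (adjusted p = 0.00341), by 2.63 ± 0.27 after CpG (0.0104) and by 1.84 ± 0.26 after Poly(I:C) (0.0189).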

How the data were processed

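RNA of 27 macrophage cultures was hybridised to 1-colour Agilent arrays. The authors corrected background by RMA, normalized by quantiles and deposited log2 values for 25 arrays (2 columns are empty), beside the scanner's intensity of every spot. The deposited log2 values were used; values remade from the deposited intensity (median signal minus median local background) differed from them by a median of 2.80e-10 and by at most 0.997. Probe positions are in mm9 and promoter positions in GRCm38.p6. A probe was tested where 2 or more arrays of 1 of the groups compared were well above background, with limma 3.58.1 (R 4.3.3), 2 groups a fit, with Benjamini-Hochberg adjustment over all probes tested. A gene with several probes was counted on that with the highest mean. Fits were tested on simulated data. The number of arrays limits the precision, and p-values measure the spread between these cultures. Other genes named are, for each list, up to 4 with the most calls, and for each member the 3 genes most alike. The members and lists were chosen with earlier results of these data known. Replicate numbers matched slides, and same-numbered arrays deviated together (r = 0.12 to 0.71) in the comparisons with 3 shared numbers that left out LPS. In comparisons with LPS the range was lower but overlapped with it (r = -0.06 to 0.29). LPS re-stimulated arrays shared slides with the same-numbered arrays of the other groups, and acute LPS arrays did not. The main fits left this pairing out, and fits with the replicate number as a block are given beside them.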

Additional observations from a re-analysis of the deposited data

Results flagged for a closer look

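The change from acute to re-stimulated cells differed between TLR ligands for Tnfrsf1b and for 1 of the 2 probes of Tnfrsf1a in 1 limma fit of all 9 groups. For Tnfrsf1b, LPS minus CpG was 1.80 ± 0.46 (log2, SE, adjusted p = 0.0303) and LPS minus Pam3CSK4 1.86 ± 0.49 (adjusted p = 0.0305). For Tnfrsf1a the values were -0.81 ± 0.23 (adjusted p = 0.0463) and -0.89 ± 0.25 (adjusted p = 0.0367) on the probe with the higher mean, and the other probe did not pass (-0.63, adjusted p = 0.214, and -0.84, adjusted p = 0.117). Each of these contrasts contains the acute LPS arrays, whose slides held no other group used here, so that stimulus and slide cannot be told apart.

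Tnfsf10 differed between Pam3CSK4 and Poly(I:C), by -7.58 in acute cells, where it was well above background on 1 of the 2 Pam3CSK4 arrays. In re-stimulated cells it was so on 0 of the 3 Pam3CSK4 arrays, and the measured means differed by -6.04, which is given as a bound of at least 57.7-fold.

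The 2 arrays that failed the study's quality control entered no comparison. With values remade over all 27 arrays, 4 of the 8 members on LPS re-stimulated replicate 3 lay above every naïve array (Tnf, Tnfsf13b, Tnfrsf1b and Fas), and 1 of the 8 lay within the range of the other arrays of its group. On acute Pam3CSK4 replicate 2, 3 members lay above every naïve array (Tnf, Tnfsf15 and Tnfrsf1b), and 3 of the 8 lay within the range of their group.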

How the results depend on the processing

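No call turned its direction under any alternative run. Of the members' calls, those that passed under every alternative were Tnf, Tnfsf9, Tnfsf10 and Tnfsf15 after acute LPS, Tnfsf9 after acute CpG, Tnf, Tnfsf10 and Tnfsf15 on LPS re-stimulation, Tnfsf9 in CpG re-stimulated against naïve cells, and Tnfsf10 between Pam3CSK4 and Poly(I:C) re-stimulated cells. The cause of the shifts in counts below was not tested.

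In the order LPS, CpG, Pam3CSK4 and Poly(I:C), the members called were 6, 4, 0 and 3 for acute against naïve, 6, 2, 0 and 0 for re-stimulated against acute, and 2, 6, 1 and 2 for re-stimulated against naïve cells. With median scaling they were 5, 6, 4 and 5 (11.2%, 3.94%, 0.819% and 5.05% of all probes called), then 4, 2, 1 and 1 (25.9%, 5.58%, 0.488% and 5.68%), then 6, 7, 3 and 6 (4.93%, 11.7%, 5.43% and 8.61%). It gave 7 calls instead of 2 between pairs of ligands and 0 instead of 4 for the ligand differences in the change on re-stimulation. This scaling moved the median of all tested probes by 0.11 to 0.78 (log2), against -0.10 to 0.06 with the deposited values, and the share of higher calls from 54% to 92.3% for acute CpG and from 49.9% to 67.6% for acute LPS. In 1 fit of all 9 groups the counts were 6, 6, 5 and 5, then 6, 2, 1 and 3, then 5, 6, 3 and 6, with 7 for the pairs. With the slide as a random block in that fit they were 6, 6, 5 and 5, then 6, 2, 1 and 3, then 5, 7, 5 and 6, with 8 for the pairs. Without the filter on background they were 5, 1, 0 and 2, then 6, 0, 0 and 0, then 0, 2, 0 and 2, with 1 for the pairs and 58 instead of 99 for the other genes of the pathway. With normexp they were 6, 4, 0 and 4 (24.4%, 9.32%, 0% and 8.84% of all probes called), then 6, 3, 0 and 2 (28.8%, 5.13%, 0% and 6.45%), then 5, 6, 3 and 4 (13.9%, 15.5%, 9.55% and 12.2%), with 5 for the pairs. With processed signals they were 6, 5, 0 and 5 (26.6%, 8.78%, 0% and 7.73%), then 6, 3, 0 and 0 (35.3%, 3.9%, 0% and 5.07%), then 3, 6, 3 and 3 (12.6%, 20.4%, 10.4% and 12.9%). Over all 27 arrays 3 members were called on LPS re-stimulation, 0 in LPS re-stimulated against naïve cells and 1 for the pairs. Remade values gave the main counts. Where no share of all probes is given for a setting, a shift in the members cannot be told apart from one over the whole array.

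With the replicate block the counts were 4, 2, 0 and 2, then 6, 2, 0 and 0, then 6, 3, 0 and 3, with 6 for the pairs. The 6 in LPS re-stimulated against naïve cells were all members but Tnfsf13b and Tnfrsf1a. For the LPS counts against naïve or acute cells no share of all probes is given. A shift in these members thus cannot be told apart from one over the whole array.

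Leaving out 1 array at a time gave 4 to 6, 1 to 4, 0 to 0 and 0 to 5 members for acute against naïve cells, 4 to 6, 0 to 2, 0 to 0 and 0 to 2 for re-stimulated against acute cells, and 0 to 6, 1 to 6, 0 to 5 and 0 to 5 for re-stimulated against naïve cells. For the comparisons with naïve cells the highest counts came without naïve replicate 3. Shares of all probes with an array left out are given above for that array only.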
